A study of Rattus norvegicus with 9 samples.

Results

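The genes described here serve protein folding in the endoplasmic reticulum (ER), the unfolded protein response, ER-associated degradation and the first transport steps out of and back to the ER. They were chosen by symbol, as 39 named genes, from a table of 19085 genes. Of these, 38 had a row in the table, and 37 had enough counts for a test among 13256 tested genes. Manf, a secreted ER stress protein, had 0 to 7 counts per library and was not tested. Ppp1r15a, which encodes a phosphatase subunit acting on eIF2α, was not analysed here.

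Polyadenylated RNA was sequenced from primary osteoblasts of male Sprague-Dawley rats 24 hours old, at first passage, in 9 libraries. All 9 came from cells kept for 7 days in osteogenic induction medium with β-glycerophosphate, ascorbic acid and dexamethasone. The 3 Control libraries had this medium alone, the 3 Thrombin libraries had thrombin at 20 U/mL in it, and the 3 PD03 libraries had the same thrombin together with the MEK inhibitor PD0325901 (PD03). PD03 was therefore measured only together with thrombin. Its concentration is 0.1 μM in the study's design text and 0.1 mM in one of the protocols. The tissue is given as knee in the labels and as calvaria in the growth protocol. The sources used here do not tie the libraries to separate animals, so the p-values measure the spread between these libraries.

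An osteoblast secretes large amounts of type I procollagen and other matrix proteins, all of which enter the ER through the translocon, are folded by chaperones and disulfide isomerases, and leave in COPII vesicles. When unfolded proteins build up, the sensors IRE1α, PERK and ATF6 start the unfolded protein response, in which XBP1, ATF6 and ATF4 raise the transcription of chaperones and degradation factors. ATF6 acts with NF-Y on the ER stress response element (ERSE), and XBP1 and ATF6 act on related elements, ERSE-II and the UPRE.

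Stretches of 6 promoters are shown because 5 of them belong to the 5 genes that were lower with PD03 than in both other groups under TMM scaling, and the sixth, that of Calr, carries the same element while its gene was higher with PD03. They come from RefSeq's promoter table for the assembly GRCr8, which held a promoter for 30 of the 39 genes and covers 250 bases before and 50 bases after each start. Capitals mark a match to the ERSE (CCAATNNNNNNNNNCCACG) or the ERSE-II (ATTGGNCCACG) on either strand, and each sequence reads 5′ to 3′ on the strand of its gene.
Hspa5, ERSE, chr3:38452943-38453015, plus strand: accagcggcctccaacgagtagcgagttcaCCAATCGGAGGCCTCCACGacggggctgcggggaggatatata
Creld2, ERSE, chr7:121789209-121789287, plus strand: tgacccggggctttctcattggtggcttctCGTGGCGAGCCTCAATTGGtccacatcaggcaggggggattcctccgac
Hyou1, ERSE-II at both marks, chr8:53602664-53602834, plus strand: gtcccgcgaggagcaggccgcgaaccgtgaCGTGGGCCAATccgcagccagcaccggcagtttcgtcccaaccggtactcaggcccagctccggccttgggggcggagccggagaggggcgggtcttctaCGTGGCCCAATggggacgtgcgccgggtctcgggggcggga
Herpud1, ERSE-II, chr19:10614791-10614861, minus strand: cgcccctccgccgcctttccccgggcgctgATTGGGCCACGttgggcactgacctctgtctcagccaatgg
Derl3, ERSE, chr20:12766571-12766649, minus strand: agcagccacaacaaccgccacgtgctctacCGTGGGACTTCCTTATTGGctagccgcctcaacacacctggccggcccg
Calr, ERSE, chr19:40213117-40213183, plus strand: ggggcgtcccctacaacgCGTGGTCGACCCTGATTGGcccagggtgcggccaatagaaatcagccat

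The ERSE was found in the promoters of 8 of the 30 genes (26.7%), namely Hspa5, Hsp90b1, Calr, Canx, Dnajc3, Creld2, Xbp1 and Derl3, and in 22 of the 33469 promoters of the whole table (0.0657%). The ERSE-II was found in 3 (10.0%), Dnajb11, Hyou1 and Herpud1, and in 17 of all promoters (0.0508%). The UPRE core (TGACGTGG) was found in Hyou1, where it overlaps the first ERSE-II match, and in Sec23a and Kdelr3, against 199 of all promoters (0.595%). The ATF4-CHOP element (ATTGCATCA) was found in 0 of the 30 and in 63 of all promoters (0.188%). The table lists 2 promoters for Hyou1. Each match is a match of letters in this window only.

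Total counts lay between 15447832 and 19841468 per library. In each group replicate 1 stood apart, since the 6 replicate pairs that include it had a chi-square of 3.02 to 3.99 times its degrees of freedom and the 3 other pairs 1.82 to 2.13. Without replicate 1 of each group, a check chosen after seeing the data, genes were counted by adjusted p beside all tested genes (background). In Thrombin against Control 17 of the 37 genes were higher (45.9%, background 14%) and 0 lower (background 14.1%). PD03 against Thrombin gave 18 higher (48.6%, background 23.9%) and 10 lower (27%, background 23.4%). In PD03 against Control 20 were higher (54.1%, background 19.4%) and 5 lower (13.5%, background 19%). Of the osteoblast markers, Col1a1, the type I collagen gene, was abundant (means of 47443, 42854 and 72132 counts per 1e6 library counts, CPM, in Control, Thrombin and PD03) and Alpl, the alkaline phosphatase of mineralising cells, was low (1.67, 0.345 and 3.11 CPM, 6 to 62 counts per library). Runx2, the osteoblast master regulator, stood at 42.8 CPM in Control, 51.1 in Thrombin and 32.1 in PD03. The late markers Bglap (1 to 5 counts per library), Ibsp (0 to 1) and Dmp1 (0 to 4) were near 0. Among markers of other cells, the summed CPM of the adipose list was 203 to 214 in Control, 98.3 to 104 in Thrombin and 160 to 170 in PD03, mostly from Lpl, while Adipoq had 0 to 1 counts. That of the myeloid and osteoclast list was 155 to 163, 131 to 136 and 188 to 195, mostly from Ctsk, while Ptprc had 0 to 6 counts. The endothelial list summed to 7.89 to 8.90, 7.35 to 9.75 and 12.0 to 14.1 CPM, and the cartilage list to 97.3 to 108, 73.3 to 79.6 and 93.9 to 101 CPM. The cartilage sum was mostly Col2a1 (means of 84.4, 49.2 and 56.4 CPM). Of the 7 tested cartilage genes, 3 were called higher and 1 lower with thrombin, beside 2.62% and 5.44% of all tested genes. The counts were 2 higher and 0 lower in PD03 against Thrombin, beside 9.61% and 6.31% of all tested genes. They were 6 higher and 1 lower in PD03 against Control, beside 4.9% and 4.07%. The part of other cells in the results was not tested, and in bulk RNA fewer cells of a type and less RNA per cell cannot be told apart.

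In Control, levels per gene length (FPKM) spanned Calr at 861 ± 2.59, Hspa5 at 459 ± 12.2 and P4hb at 416 ± 10.7 down to Ern1 at 2.84 ± 0.276, Derl3 at 1.27 ± 0.13 and Manf at 0.114 ± 0.0661 (SD, n = 3). Calr, Hspa5 and P4hb, that is a lectin chaperone, the main ER Hsp70 and a disulfide isomerase, made up 38.22% of the FPKM of the 38 genes, and with Hsp90b1 and Fkbp10 the 5 highest made up 50.66%. The 5 next levels, those of Sec61b (206 ± 4.63), Kdelr2 (206 ± 6.13), Pdia3 (198 ± 3.00), Pdia4 (193 ± 5.13) and Pdia6 (193 ± 4.30), lay within 1 SD of a neighbour among the 5.

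Whether thrombin changed these genes was asked first. In Thrombin against Control, 14 of the 37 tested genes were higher and 0 were lower by adjusted p alone (under 0.05, edgeR's quasi-likelihood test with Benjamini-Hochberg adjustment over all tested genes), against a background of 14.1% higher and 14.6% lower among all tested genes. The 14 are 37.8% of the 37. They were the chaperones and co-chaperones Hspa5, Hsp90b1, Canx, Dnajb11, Dnajc3, Hyou1, Creld2 and Fkbp14, the regulators Xbp1, Ern1, Creb3l1 and Creb3l2, the degradation factor Edem1 and the COPII coat gene Sec24d. The changes were small, since the log2 fold changes of the 37 lay between -0.09 and 0.42, with a median of 0.09 beside -0.01 over all tested genes. With the fold threshold added (absolute log2 fold change above 0.58), 0 were called in either direction, against 2.62% of all tested genes called higher and 5.44% called lower. DESeq2 and limma voom also called 0 with the fold threshold, and at an unadjusted p under 0.05 edgeR gave 16 higher and 0 lower, DESeq2 17 and 0. The share of all tested genes at an unadjusted p was not counted, so these counts have no background beside them. Abundant genes pass the test at smaller changes, and among genes with a mean count of at least 50 the shares past the adjusted p were 15.6% higher and 16.1% lower.

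In PD03 against Thrombin the genes split. By adjusted p alone 15 of 37 were higher (40.5%, background 25.3%) and 10 were lower (27%, background 24.5%), so the share of lower genes was near the background. With the fold threshold, 2 were called lower, Creld2 and Derl3, and 0 higher, against 6.31% and 9.61% of all tested genes. The log2 fold changes ran from -0.88 to 0.39, with a median of 0.06 beside 0.01 over all tested genes. In PD03 against Control, 20 were higher (54.1%, background 19.7%) and 5 lower (13.5%, background 20.2%) by adjusted p alone, and with the fold threshold Creb3l1 was called higher and Derl3 lower, against 4.9% and 4.07% of all tested genes. The 3 comparisons share libraries in pairs, so their values are given side by side only.

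With library totals in place of TMM, the median of all tested genes in PD03 against Control was -0.12 and 34.1% of all called genes were higher, where TMM scaling gave 54.6%. In PD03 against Thrombin the corresponding shares of called genes were 46.5% and 60.4%. Under library totals these genes split 11 higher (29.7%, background 18.3%) to 11 lower (29.7%, background 34.5%) against Thrombin and 11 higher (29.7%, background 12.3%) to 9 lower (24.3%, background 34.4%) against Control, and their medians turned to -0.04 and -0.02, beside -0.09 and -0.12 over all tested genes. The genes higher against Thrombin under all 5 other scalings or values tried were Calr, Fkbp10, Fkbp14, Pdia6, P4hb, Creb3l1, Selenos, Sec61b and Kdelr3, 9 of the 15. All 10 falls against Thrombin and all 14 rises in Thrombin against Control also passed the adjusted p under each of these 5. Since library totals and FPKM move all genes down in PD03, that a fall passes there follows from the direction of the shift.

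**Figure D1:**
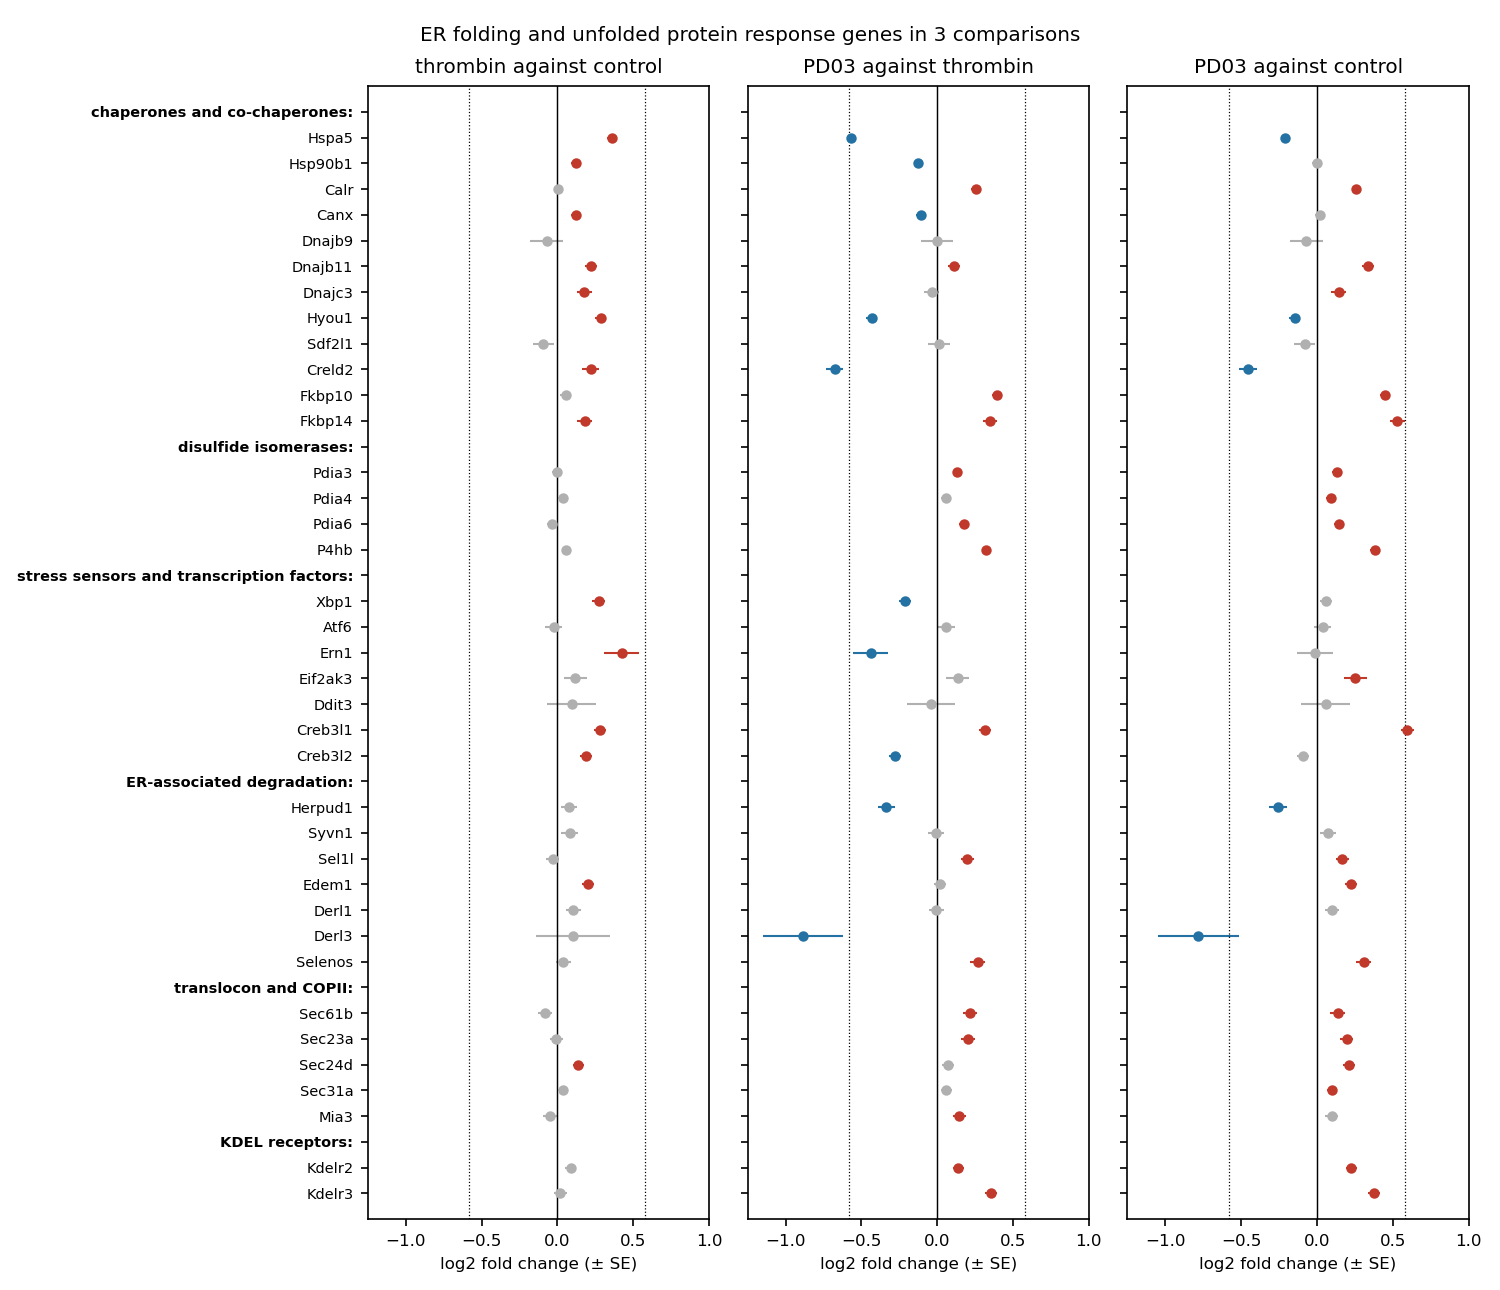
Log2 fold changes (x axis, points with ± SE) of the 37 tested genes, grouped by role, in the 3 comparisons, where red points passed the adjusted p of 0.05 higher, blue points lower, grey points did not pass, dotted lines mark a log2 fold change of 0.58 either way. With thrombin 14 points are red and 0 blue, whereas PD03 against Thrombin holds 15 red and 10 blue points under TMM scaling and 11 of each under library totals.

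Among the 12 tested chaperones and co-chaperones, 8 rose with thrombin (66.7%, background 14.1%) and 0 fell (background 14.6%). In PD03 against Thrombin 4 were higher (33.3%, background 25.3%) and 5 lower (41.7%, background 24.5%). Hspa5 encodes BiP, the abundant Hsp70 of the ER that also holds the stress sensors inactive. Its levels were 1175, 1142 and 1140 CPM in Control, 1472, 1478 and 1476 in Thrombin, and 972, 1011 and 1008 in PD03. The Thrombin libraries were the highest and the PD03 libraries the lowest, with no overlap between any groups. Hspa5 was 1.28-fold higher in Thrombin than in Control (log2 fold change 0.36 ± 0.03 SE, adjusted p = 8.6e-13). In PD03 it stood at 0.676 times the Thrombin level (-0.57 ± 0.03, adjusted p = 2.1e-19, and -0.66 under library totals, past the fold threshold) and 0.865 times the Control level (-0.21 ± 0.03, adjusted p = 3.9e-07).

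Creld2, an ER stress-inducible protein with a disulfide isomerase-like activity, had levels of 70.1, 64.0 and 72.1 CPM in Control, 76.8, 82.0 and 81.4 in Thrombin, and 48.3, 51.5 and 50.9 in PD03. It followed the order of Hspa5, with PD03 below Control and Control below Thrombin in every library. Its log2 fold change was 0.22 ± 0.05 in Thrombin against Control (adjusted p = 0.0016), -0.67 ± 0.06 in PD03 against Thrombin (adjusted p = 1.4e-13) and -0.45 ± 0.06 in PD03 against Control (adjusted p = 1.2e-08). Hyou1, which exchanges nucleotide on BiP, rose with thrombin by 0.28 (log2) and was lower with PD03 by the same test than in Thrombin (-0.43) and in Control (-0.15). Hsp90b1, the ER Hsp90, and Canx, the membrane-bound lectin chaperone, rose with thrombin by 0.12 and 0.13 and were lower with PD03 than with thrombin (-0.12 and -0.11), with 1.00-fold and 1.01-fold levels in PD03 against Control, which turned to log2 fold changes of -0.12 and -0.10 under library totals.

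Fkbp14, a prolyl isomerase of the ER that acts on procollagen, had 81.0, 76.6 and 77.6 CPM in Control, 94.0, 86.5 and 86.4 in Thrombin, and 115, 111 and 114 in PD03. Its libraries stepped up from Control to Thrombin to PD03 without overlap. The log2 fold change was 0.18 ± 0.05 in Thrombin against Control (adjusted p = 0.0040), 0.35 ± 0.05 in PD03 against Thrombin (adjusted p = 6.3e-08) and 0.53 ± 0.05 in PD03 against Control (adjusted p = 4.6e-12). Fkbp10, a related collagen chaperone whose loss causes brittle bone disease, did not pass the test with thrombin (0.05) and was higher with PD03 than in Thrombin (0.39) and in Control (0.45). Calr, the soluble lectin chaperone, was at 0.01 with thrombin, without passing, and higher with PD03 by 0.25 and 0.26. Dnajb11, a BiP co-chaperone, rose in all 3 comparisons (0.22, 0.11 and 0.34), the second of them not under library totals. Dnajb9 and Sdf2l1, co-chaperones that the unfolded protein response induces, passed in 0 of the 3 comparisons (Sdf2l1 passed as lower than Control under library totals), with levels of 13.9, 13.3 and 13.2 CPM for Dnajb9 and 45.1, 42.2 and 42.4 CPM for Sdf2l1 in Control, Thrombin and PD03.

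The 4 disulfide isomerases, Pdia3, Pdia4, Pdia6 and P4hb, did not pass the test with thrombin (log2 fold changes -0.03 to 0.06). In PD03 against Thrombin 3 were higher (75%, background 25.3%), with a list median of 0.16 (2 higher and a median of 0.06 under library totals). P4hb, which is both protein disulfide isomerase and the β subunit of the collagen prolyl 4-hydroxylase, had 1388, 1375 and 1340 CPM in Control, 1422, 1419 and 1433 in Thrombin, and 1803, 1760 and 1783 in PD03. The PD03 libraries lay above all others, which were close together. P4hb was 1.25-fold higher in PD03 than in Thrombin (log2 fold change 0.32 ± 0.03, adjusted p = 2.7e-12) and 1.30-fold higher than in Control (0.38 ± 0.03, adjusted p = 4.1e-14). Pdia3, the partner of Calr and Canx, and Pdia6 were higher by 0.13 and 0.18 against Thrombin, and Pdia3 did not pass under library totals. Pdia4 passed only against Control (0.09), where its direction turned under library totals and in FPKM (-0.025).

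Of the 7 tested sensors and transcription factors, 4 rose with thrombin (57.1%, background 14.1%). In PD03 against Thrombin 1 was higher (14.3%, background 25.3%) and 3 lower (42.9%, background 24.5%). Ern1 encodes IRE1α, the sensor whose RNase splices Xbp1 mRNA. It had 10.0, 10.8 and 8.91 CPM in Control, 12.1, 13.2 and 14.6 in Thrombin, and 9.43, 9.52 and 10.5 in PD03. The Thrombin libraries stood above all others, while Control and PD03 overlapped. The log2 fold change was 0.42 ± 0.11 with thrombin (adjusted p = 0.0037), -0.44 ± 0.11 in PD03 against Thrombin (adjusted p = 0.0013) and -0.02 ± 0.12 in PD03 against Control (adjusted p = 0.93).

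Xbp1, the substrate of IRE1α, showed the same path, at 166 ± 3.11, 200 ± 9.37 and 173 ± 1.45 CPM (SD, n = 3), with log2 fold changes of 0.27, -0.21 and 0.06, of which the last did not pass. Gene counts do not separate the spliced form of Xbp1 from the unspliced one. Creb3l2, a membrane-bound transcription factor of secretory genes, likewise rose with thrombin (0.19) and was lower with PD03 than with thrombin (-0.28). Atf6 and Ddit3, which encodes the stress factor CHOP, passed in 0 of the 3 comparisons, with Ddit3 at 5.16, 5.52 and 5.35 CPM. Eif2ak3, which encodes PERK, passed only in PD03 against Control (0.25), and not under library totals.

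Creb3l1 (OASIS), a transcription factor of the ER membrane needed for type I collagen transcription in bone, was the one regulator that rose in all 3 comparisons. Its levels were 283, 316 and 315 CPM in Control, 388, 346 and 376 in Thrombin, and 480, 448 and 452 in PD03. The groups stepped up from Control to Thrombin to PD03 with no overlap. The log2 fold change was 0.28 ± 0.04 with thrombin (adjusted p = 8.9e-07), 0.31 ± 0.04 in PD03 against Thrombin (adjusted p = 2.4e-08) and 0.59 ± 0.04 in PD03 against Control (adjusted p = 1.8e-15). This last value lay just above the threshold of 0.58, and it was 0.48 under library totals, 0.47 and 0.48 in FPKM with 1 and 0.1 added, 0.54 without Control replicate 1, 0.56 without PD03 replicate 1 and 0.51 without replicate 1 of each group, so the call for size was lost there while the adjusted p still passed.

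Of the 7 degradation genes, 1 rose with thrombin (14.3%, background 14.1%). In PD03 against Thrombin 2 were higher (28.6%, background 25.3%) and 2 lower (28.6%, background 24.5%). These shares were near the background. Edem1, which hands misfolded glycoproteins to degradation, had 186, 181 and 179 CPM in Control, 206, 211 and 212 in Thrombin, and 203, 217 and 218 in PD03. Control lay below both other groups, and these overlapped. Its log2 fold change was 0.20 ± 0.04 with thrombin (adjusted p = 9.2e-05), 0.02 ± 0.04 in PD03 against Thrombin (adjusted p = 0.71) and 0.22 ± 0.04 in PD03 against Control (adjusted p = 1.4e-05).

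Derl3, a stress-inducible part of the channel that draws proteins back out of the ER, was the least abundant of the 37 tested genes, with 23 to 60 counts per library. It had 2.45, 2.72 and 2.21 CPM in Control, 2.44, 3.29 and 2.16 in Thrombin, and 1.22, 1.55 and 1.53 in PD03. All PD03 libraries were lower than all others, and Control and Thrombin overlapped. The log2 fold change was 0.10 ± 0.24 with thrombin (adjusted p = 0.81), -0.88 ± 0.26 in PD03 against Thrombin (adjusted p = 0.0049) and -0.78 ± 0.27 in PD03 against Control (adjusted p = 0.018). Single libraries decided these calls, since the adjusted p was 0.054 against Thrombin without Thrombin replicate 2, and 0.062 and 0.079 against Control without Control replicate 2 and without PD03 replicate 1. Without replicate 1 of each group the adjusted p was 0.029 against Thrombin and 0.11 against Control.

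Herpud1, a membrane organiser of the degradation complex, did not pass with thrombin (0.08) and was lower with PD03 than in Thrombin (-0.34) and in Control (-0.26). Sel1l, the adaptor of the ubiquitin ligase HRD1, and Selenos, a selenoprotein of the same complex, were higher with PD03 than in Thrombin (0.20 and 0.27), and Sel1l did not pass in FPKM. Syvn1, the ligase HRD1 itself, and Derl1 passed in 0 of the 3 comparisons.

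For the translocon and COPII, 1 of 5 genes rose with thrombin (20%, background 14.1%). In PD03 against Thrombin 3 of 5 were higher (60%, background 25.3%) and 0 lower (background 24.5%). Sec61b, a subunit of the channel through which nascent chains enter the ER, had 111, 111 and 116 CPM in Control, 105, 105 and 110 in Thrombin, and 132, 118 and 121 in PD03. PD03 lay above both other groups, and replicate 1 was its highest library. The log2 fold change was -0.08 ± 0.05 with thrombin (adjusted p = 0.22), 0.22 ± 0.05 in PD03 against Thrombin (adjusted p = 1.7e-04) and 0.14 ± 0.05 in PD03 against Control (adjusted p = 0.019). Against Control the adjusted p became 0.16 without PD03 replicate 1, 0.065 and 0.094 without Control replicates 1 and 2, and 0.77 under library totals.

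Sec24d, a COPII coat subunit that selects cargo and takes part in procollagen export, had 248, 243 and 254 CPM in Control, 289, 263 and 267 in Thrombin, and 284, 285 and 291 in PD03. Control was lowest and the other groups overlapped. Its log2 fold change was 0.14 ± 0.04 with thrombin (adjusted p = 0.0053), 0.07 ± 0.04 in PD03 against Thrombin (adjusted p = 0.13) and 0.21 ± 0.04 in PD03 against Control (adjusted p = 2.3e-05). Without Thrombin replicate 1, its highest Thrombin library, the first adjusted p was 0.066. Sec23a, the inner coat partner of Sec24, and Mia3 (TANGO1), the receptor that loads procollagen into carriers, were higher with PD03 than in Thrombin by 0.20 and 0.14, but Sec23a did not pass in FPKM and Mia3 did not under library totals or in FPKM. Sec31a, of the outer coat, passed only against Control (0.10), where it turned to -0.017 under library totals.

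Both KDEL receptors, which return escaped chaperones such as BiP to the ER, were higher with PD03 and passed in 0 cases with thrombin. Kdelr3 had 134, 138 and 136 CPM in Control, 136, 134 and 144 in Thrombin, and 176, 177 and 177 in PD03. The PD03 libraries stood above the rest, which overlapped. Its log2 fold change was 0.02 ± 0.04 with thrombin (adjusted p = 0.78), 0.36 ± 0.04 in PD03 against Thrombin (adjusted p = 1.2e-09) and 0.37 ± 0.04 in PD03 against Control (adjusted p = 6.3e-10). Kdelr2 was higher by 0.14 and 0.23, the first not under library totals.

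**Figure D2:**
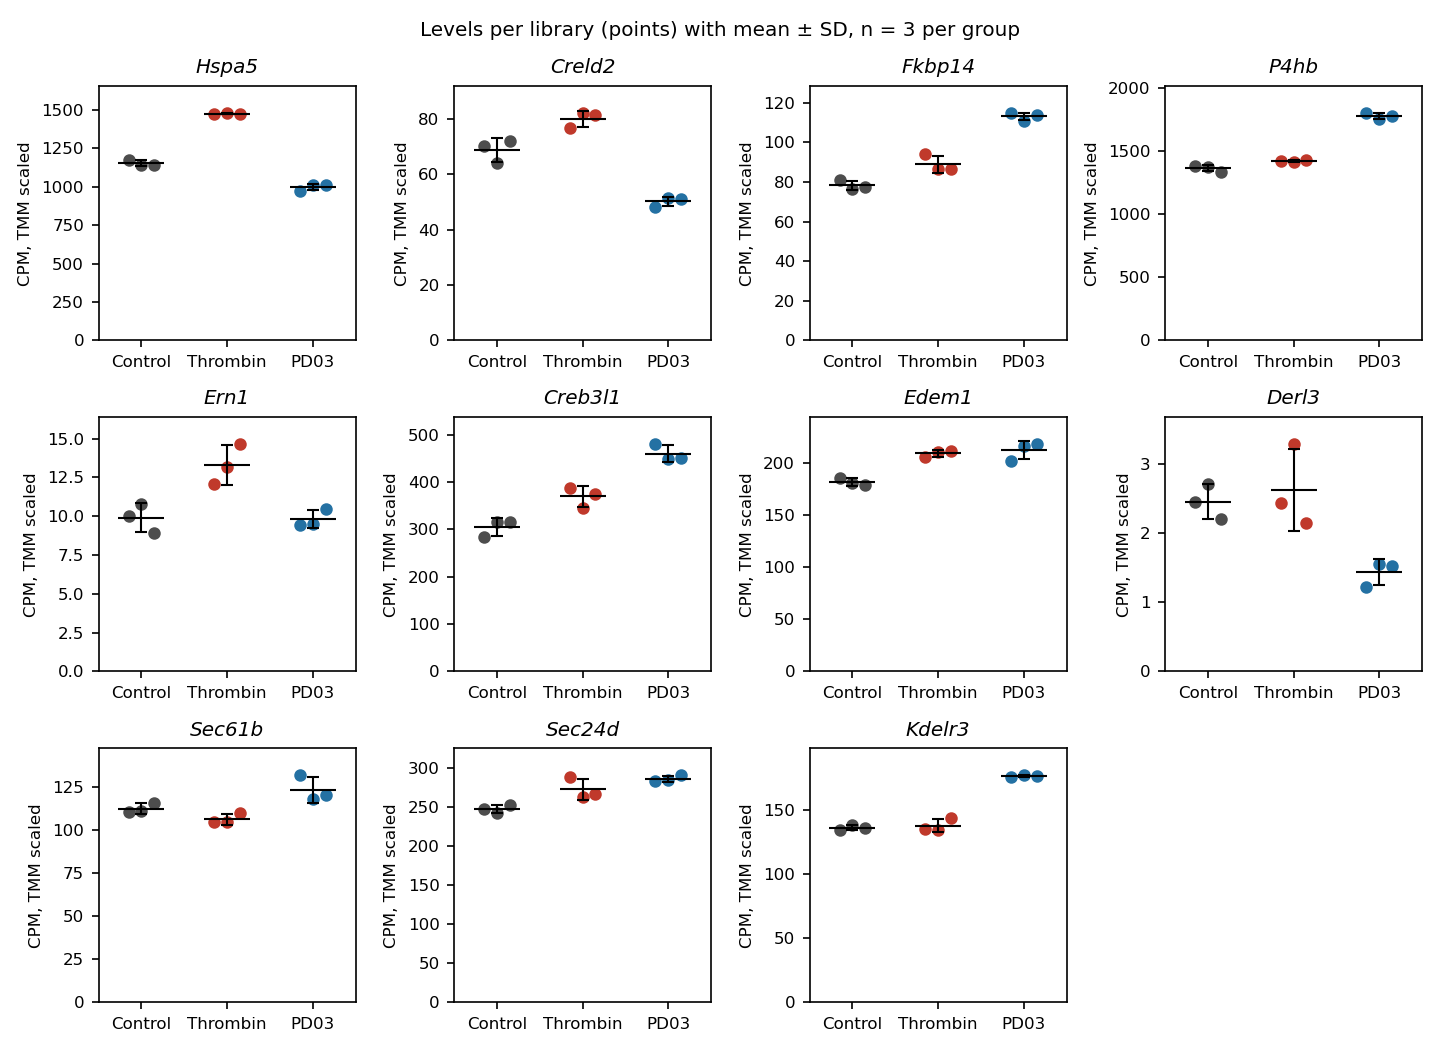
Levels in CPM after TMM scaling (y axes from 0) of 11 genes in each of the 9 libraries, with the group mean and SD. Hspa5 and Creld2 are lowest in PD03, Ern1 is highest in Thrombin, and Fkbp14, P4hb, Creb3l1 and Kdelr3 are highest in PD03.

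Read by promoter, the tested genes with an ERSE or ERSE-II match in the window shown above and those with neither had different medians. Most genes with a match were chaperones or co-chaperones, and most with neither had other roles. Element and role therefore overlap and were not separated. Of the 11 with a match, 8 rose with thrombin (72.7%, background 14.1%, median log2 fold change 0.18), and in PD03 against Thrombin 8 were lower (72.7%, background 24.5%) and 2 higher (18.2%, background 25.3%, median -0.21). Of the 18 with a promoter and neither element, 4 rose with thrombin (22.2%, median 0.04), and in PD03 against Thrombin 1 was lower (5.56%) and 9 higher (50.0%, median 0.14). Under library totals (background 34.5% lower and 18.3% higher) the PD03 against Thrombin counts were 9 lower and 1 higher with a match. Without a match they were 1 lower and 8 higher. The 1 lower gene without the elements was Creb3l2, and the 2 higher genes with one were Calr and Dnajb11. In PD03 against Control (background 19.7% higher and 20.2% lower) 3 were higher (27.3%) and 5 lower (45.5%) with a match. Without a match 12 were higher (66.7%) and 0 lower. Under library totals (background 12.3% higher and 34.4% lower) 2 were higher and 7 lower with a match in this comparison. Without a match 6 were higher and 2 lower (Sdf2l1 and Creb3l2).

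Under TMM scaling Hspa5, Hyou1, Creld2, Herpud1 and Derl3 were the genes lower in PD03 than in both other groups, and each carries a match, as printed above. Membership of this group moved with the scaling. Creb3l2, which has no match, was at -0.09 against Control (adjusted p = 0.064). It passed as lower than Control under library totals (-0.21) and in FPKM. The same held under TMM computed without genes for secreted cargo, where the median of all tested genes was -0.01. Hsp90b1 and Canx, which have a match, also passed as lower than Control under library totals and in FPKM. The division by promoter was not tested, since the genes of a pathway are not independent samples. The 8 tested genes with no promoter in the table were 4 higher (50.0%, background 25.3%) and 1 lower (Ern1, 12.5%, background 24.5%) in PD03 against Thrombin. Outside these genes, 15 other tested genes carry an ERSE or ERSE-II match, of which 3 rose with thrombin (20.0%, background 14.1%), and 7 were lower (46.7%, background 24.5%) and 2 higher (13.3%, background 25.3%) in PD03 than in Thrombin (median -0.25).

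**Figure D3:**
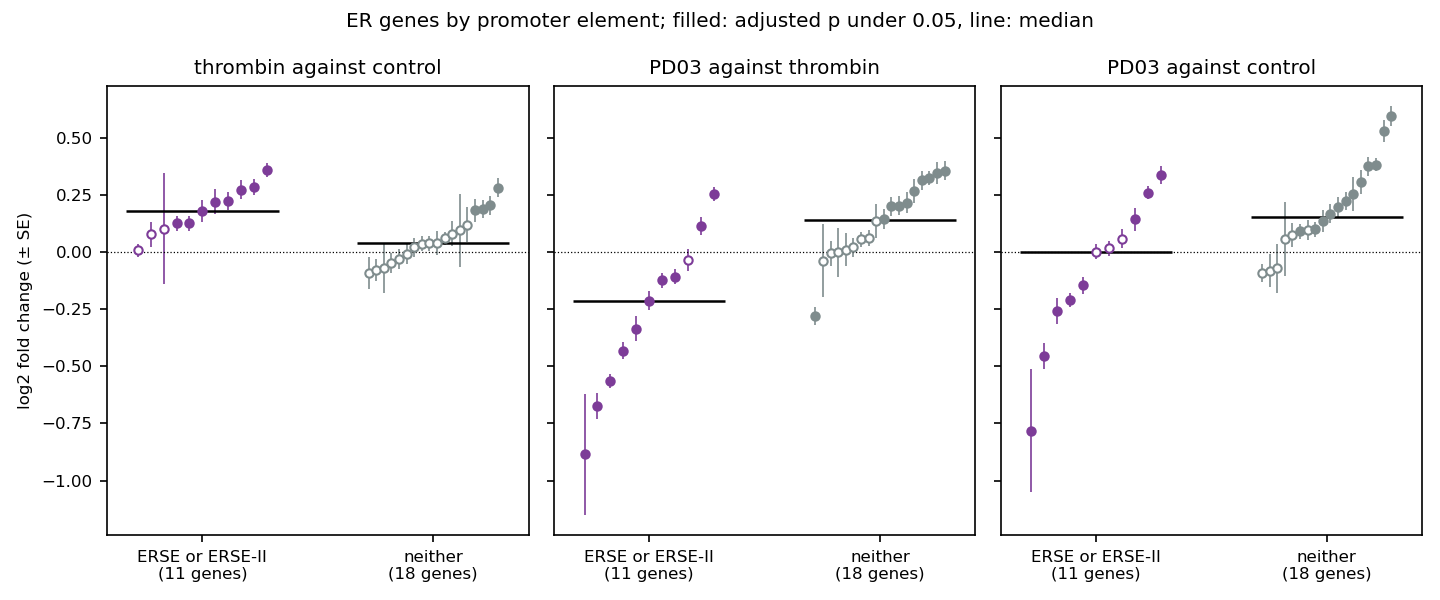
Log2 fold changes (y axis, ± SE) of tested genes whose promoter holds an ERSE or ERSE-II match (11 genes) or neither (18 genes), in the 3 comparisons. Filled points passed the adjusted p of 0.05 and the lines are medians, which in PD03 against Thrombin stand at -0.21 and 0.14 under TMM scaling.

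The genes were set against the secretory load, measured as the share of all counts taken by 61 genes for secreted matrix and other cargo. This share was 16.6% ± 0.390 in Control, 16.0% ± 0.165 in Thrombin and 20.9% ± 0.145 in PD03 (SD, n = 3). The PD03 libraries (20.8% to 21.1%) lay above the others (15.8% to 16.9%) without overlap, and the Thrombin libraries lay just under the Control libraries. PD03 was 1.30 times Thrombin and 1.26 times Control, each with p = 0.1 in the exact two-sided permutation test, the smallest p that 3 libraries against 3 can give, so the test cannot pass 0.05. Col1a1 was lower with thrombin than in Control (log2 fold change -0.15) and higher with PD03 than with thrombin (0.75), and Col1a2, the partner chain of type I collagen, showed -0.22 and 0.75. Not all cargo moved together, as fibronectin (Fn1) fell by 0.13 on the log2 scale and osteopontin (Spp1) fell by 1.80 in PD03 against Thrombin, and all of these passed the adjusted p. By adjusted p alone, 22 of the 59 tested cargo genes were higher (37.3%, background 14.1%) and 31 lower (52.5%, background 14.6%) with thrombin. In PD03 against Thrombin 38 were higher (64.4%, background 25.3%) and 15 lower (25.4%, background 24.5%). The share of lower cargo genes in PD03 against Thrombin was thus near the background.

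The 38 genes together took 1.23% ± 0.0214 of the counts in Control, 1.31% ± 0.0124 in Thrombin and 1.28% ± 0.000434 in PD03. Of the summed FPKM they took 1.27% ± 0.0192, 1.34% ± 0.0143 and 1.37% ± 0.00696, so that by counts Thrombin was highest and by FPKM PD03 was, without overlap. Per 100 cargo counts there were 7.43 ± 0.307 of their counts in Control, 8.18 ± 0.132 in Thrombin and 6.10 ± 0.0402 in PD03. In this ratio Thrombin was highest and PD03 lowest, with no overlap. Relative to the cargo, all 37 tested genes were lower in PD03 than in Thrombin, Fkbp10 with overlapping libraries (median -0.42 on the log2 scale), as were 85.9% of all tested genes (median -0.47), so this ratio moved with the cargo for most genes. Against Control, Creb3l1 (0.15) and Fkbp14 (0.08) were higher per cargo, Fkbp14 with overlapping libraries. The other 35 had lower means per cargo, beside lower means in 90.3% of all tested genes. Of these 35, Fkbp10, P4hb, Eif2ak3 and Selenos had overlapping libraries. How many of all tested genes had overlapping libraries per cargo was not counted.

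**Figure D4:**
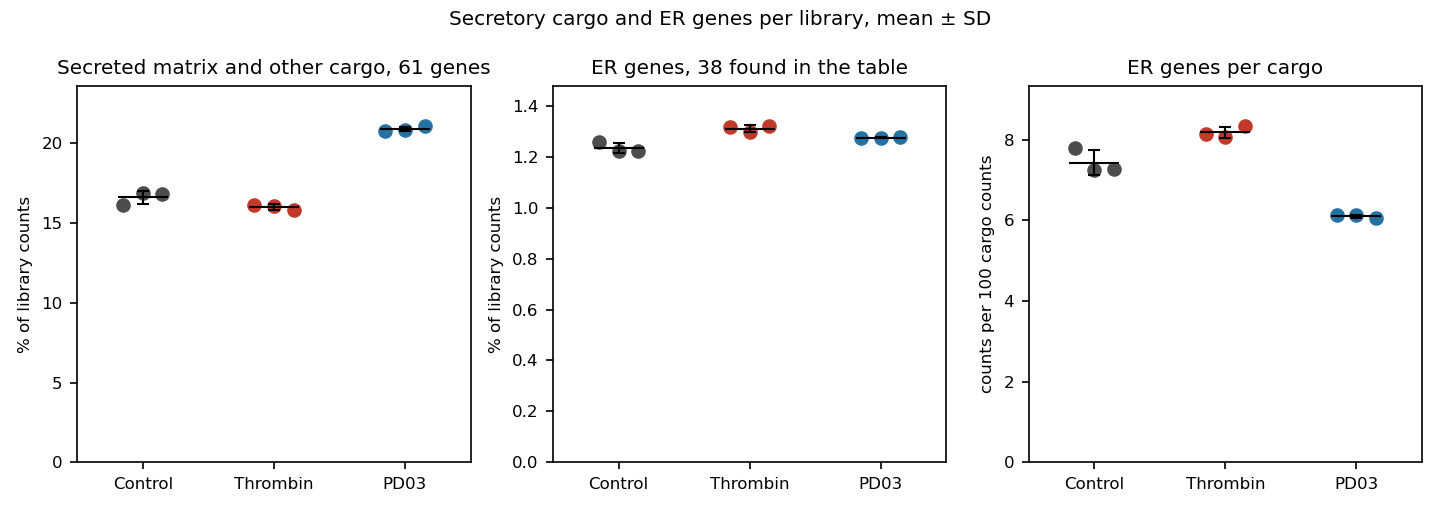
Share of library counts taken by 61 secreted cargo genes (left, %), share taken by the 38 ER genes (middle, %), and ER gene counts per 100 cargo counts (right), for each library with the group mean and SD. The cargo share is highest in PD03 (20.9%), while the ER genes per cargo are highest in Thrombin (8.18) and lowest in PD03 (6.10).

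Other genes of the pathway were taken from 8 lists with 150 tested genes, of which 32 were higher (21.3%, background 14.1%) and 17 lower (11.3%, background 14.6%) with thrombin, and 62 higher (41.3%, background 25.3%) and 26 lower (17.3%, background 24.5%) in PD03 than in Thrombin, by adjusted p. Counts and medians of these lists are under TMM scaling unless said otherwise, and library totals lowered the medians by about the shift of all genes, turning those of the COPII and cargo receptor list to -0.04, of the translocation list to -0.05 and of the sensor list to -0.05. Under library totals the background in PD03 against Thrombin was 18.3% higher and 34.5% lower. The 30 other folding genes were 19 higher (63.3%) and 3 lower (10%) in PD03 than in Thrombin (median 0.25, with 18 and 8 under library totals). Among them Fkbp7, a prolyl isomerase of the ER, had the largest rise (0.73, from 41.4 ± 1.81 to 68.7 ± 1.99 CPM). Ero1b, an oxidase that recharges disulfide isomerases, had the largest fall (-0.60, from 10.9 ± 0.450 to 7.25 ± 1.63 CPM). Serpinh1, the procollagen chaperone HSP47, named after its values were seen, was also called higher (0.60, from 2151 ± 14.7 to 3251 ± 105 CPM). The 12 COPI and retrieval genes were 7 higher (58.3%) and 1 lower (8.33%, median 0.14, with 5 and 4 under library totals). The 9 genes of N-glycan transfer were 6 higher (66.7%) and 1 lower (11.1%, median 0.11, with 2 and 2 under library totals). The 25 other COPII and cargo receptor genes were 10 higher (40%) and 4 lower (16%, median 0.06, with 7 and 5 under library totals). Of these, Tmed3, a p24 cargo receptor, was called higher (0.59). The 20 other degradation genes were 8 higher (40%) and 1 lower (5%, median 0.10, with 5 and 4 under library totals). The 21 translocation and signal peptidase genes were 6 higher (28.6%, near the background of 25.3%) and 2 lower (9.52%, median 0.05, with 6 and 7 under library totals). The 14 other sensor and processing genes were 5 higher (35.7%) and 5 lower (35.7%, median 0.04, with 4 and 6 under library totals).

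The 19 tested genes listed as targets of ATF4 and CHOP were 11 higher (57.9%, background 14.1%) and 3 lower (15.8%, background 14.6%) with thrombin (median 0.18). With the fold threshold, 3 of the 19 were called higher with thrombin (background 2.62%). The 2 called lower (background 5.44%) were Stc2 (-0.94) and Atf3 (-0.67). In PD03 against Thrombin 1 was higher (5.26%, background 25.3%) and 9 lower (47.4%, background 24.5%), with a median of -0.39. Under library totals 14 were lower there (background 34.5%). The largest called fall was that of Ddit4, a stress-induced inhibitor of mTORC1 (-1.12, from 36.7 ± 4.82 to 16.8 ± 1.72 CPM). The 1 gene that rose was Atf3, a stress-induced transcription factor (1.53, from 1.97 ± 0.864 to 5.73 ± 1.00 CPM). Psat1 (-0.82) and Shmt2 (-0.76), enzymes of serine and glycine synthesis, and Cebpb (-0.58), a transcription factor, were also called lower and are named after their values were seen. Beside them, Ddit3 itself did not pass in this comparison (-0.04).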

How the data were processed

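The table the authors deposited holds, per gene and library, a raw count and an FPKM value. The paper names fastp, HISAT2, Rnor_6.0 and featureCounts, while the submitters' processing notes name HISAT2, HTSeq 0.13.5 and mRatBN7.2, so the deposited counts cannot be assigned to one counter here. Strandedness and annotation release: not given in the sources used here. Groups were taken from the sample titles.

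Counts were tested with edgeR 4.0.16 in R 4.3.3. Genes were kept by filterByExpr with a minimum count of 10 and scaled by TMM. All 9 libraries were fitted in 1 quasi-likelihood model, p-values were adjusted by Benjamini-Hochberg over 13256 genes, and SE is the absolute log2 fold change divided by the square root of F. Calls required both an adjusted p below 0.05 and an absolute log2 fold change over 0.58, and counts by adjusted p alone are named so. The biological coefficient of variation was 4.28%. CPM values are TMM-scaled. Over 9 pairs of replicates, the ratio of chi-square to its degrees of freedom was 1.82 to 3.99, highest in the pairs with replicate 1. All pairs lay above the 1 of counting noise, so none differed by counting noise alone. This ratio does not decide whether replicate 1 should be kept. Every library was kept in the main fit, and counts without replicate 1 of each group are given above. The script was tested on simulated data. Cargo shares were compared by an exact permutation test. Promoters were matched by symbol in RefSeq's GRCr8 table, a newer assembly than that of the counts.

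The genes and lists were chosen with earlier results of these data known. Library values are given for genes called in any comparison and, in each of 6 roles, for the gene with the largest change past the adjusted p in each comparison, 11 genes in all. Other genes with library values or means were added by role. From each pathway list, the called genes with the largest rise and fall in PD03 against Thrombin are named. Alternatives used limma 3.58.1 and DESeq2 1.42.0, other scalings, filters and thresholds, the FPKM values, a replicate block, and each library left out. Leaving out replicate 1 of each group was chosen after seeing the data. Figures used Python 3.11.15 and matplotlib 3.10.9.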

Additional observations from a re-analysis of the deposited data

How the results depend on the processing

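Of 2439 log2 fold changes of single genes under an alternative, 2261 kept their side of the adjusted p. These include values that passed in neither fit and changed sign, such as Atf6 in PD03 against Control (0.04, alternatives -0.08 to 0.14). Another 135 no longer passed (64 of them in glmTreat against 0.58, a test of the fold threshold itself, in which 0 of 111 passed). A further 31 newly passed, and 12 turned with a pass in either fit. These 12 were 4 genes in PD03 against Control, under library totals, FPKM with 1 added and FPKM with 0.1 added in this order: Hsp90b1 (-0.12, -0.11 and -0.11), Canx (-0.10, -0.099 and -0.099), Pdia4 (-0.025, -0.025 and -0.025) and Sec31a (-0.017, -0.017 and -0.018). All 4 changes were nearer 0 than the shift of the median of all genes under library totals (-0.12). The 2 genes called in PD03 against Thrombin became 1 with a mean count of at least 50, which leaves Derl3 untested, and 0 with glmTreat or a threshold of 1, and 1 to 3 with a library left out (1 without Thrombin replicate 2, 3 with Hspa5 without PD03 replicate 2). Hspa5 was also called under library totals, with no filter and in FPKM, where with 1 added Derl3 was not. The 2 called in PD03 against Control became 1 under library totals, 1 with a mean count of at least 50, 0 and 1 in FPKM with 1 and 0.1 added, 0 with glmTreat and 0 with a threshold of 1, and 0 to 2 with a library left out (1 without Control replicate 1, 1 without Control replicate 2, 0 without PD03 replicate 1, and 0 without replicate 1 of each group). The log2 ratio of the cargo share was -0.05, 0.38 and 0.33 for Thrombin against Control, for PD03 against Thrombin, and for PD03 against Control, and -0.0094, 0.27 and 0.26 without Col1a1. As a share of FPKM it was 0.40 for PD03 against Thrombin. The causes were not tested.

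Deviations of same-numbered libraries from their group means correlated between -0.046 and 0.052 over 9 pairs, and those of other pairs between -0.056 and 0.055. Since all tested genes weigh alike here, also those with few counts, these values cannot exclude a pairing by replicate number. With the replicate block 14, 25 and 25 genes passed the adjusted p and 0, 2 and 2 were called in the 3 comparisons, the same as without it. Depth limits Derl3 and Ddit3 most, and with 3 libraries a group the permutation test cannot pass 0.05.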
